A study of Homo sapiens with 6 samples.

Results

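The interferon-induced transmembrane genes IFITM1, IFITM2 and IFITM3 were examined in HMEC-1 cells depleted of SETD7. They were 3 of the 18544 genes in the count table and were found by their symbols, after being selected on the fold change of IFITM1 in these same libraries, under the identifiers ENSG00000185885.11, ENSG00000185201.11 and ENSG00000142089.10. HMEC-1 is an immortalised line of human microvascular endothelial cells, grown here in MCDB131 medium with 5.5 mM glucose. In the Set7KD group (n = 3 libraries) a lentivirus delivered an shRNA against SETD7, a lysine methyltransferase also written Set7. In the NTC group (n = 3) a lentivirus delivered a non-targeting shRNA, so that both groups carried lentivirus and hairpin. The labels give 1 line and no second hairpin, and they call the libraries biological triplicates without saying whether these were separate transductions. P-values therefore measure the spread between these libraries.

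IFITM proteins are small membrane proteins that hinder the fusion of enveloped viruses with the cell. IFITM1 is found mostly at the cell surface, while IFITM2 and IFITM3 carry a longer N-terminal part with an endocytosis signal and sit mostly in endosomes and lysosomes. Their genes are induced by type I and type II interferon, through promoter elements bound by STAT and IRF transcription factors, and many cells also express them without added interferon. The IFITM3 protein has itself been reported as a substrate of SETD7, which is a statement about protein and not about transcript level.

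The 3 genes lie side by side on chromosome 11 and are close copies of each other. In the GENCODE 29 annotation of GRCh38, the transcript used here for IFITM2 spans chr11:308163-309395 and that for IFITM1 chr11:313853-315272, both on the plus strand, and that for IFITM3 spans chr11:319669-321050 on the minus strand. The counts were made on hg19, so these positions describe the reference and not the counting. Each transcript has 2 exons, and the transcripts measure 659, 855 and 808 bases for IFITM2, IFITM1 and IFITM3. Over the coding sequence, IFITM2 and IFITM3 matched at 375 of 399 aligned bases (94.0%), IFITM1 and IFITM3 at 289 of 331 (87.3%), and IFITM1 and IFITM2 at 284 of 331 (85.8%). The start of each coding sequence is shown because it holds both the near-identity of IFITM2 and IFITM3 and the part that IFITM1 lacks. Capitals mark bases that differ from IFITM3 (in IFITM3, from IFITM2), with the gap between both placed by the alignment.
IFITM2: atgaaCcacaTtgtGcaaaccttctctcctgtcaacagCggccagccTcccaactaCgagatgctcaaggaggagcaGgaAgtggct
IFITM3: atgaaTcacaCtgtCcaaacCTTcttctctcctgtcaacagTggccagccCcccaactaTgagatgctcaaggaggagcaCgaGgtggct
IFITM1: atgcAcaaggaggaAcaTgaggtggct
The first base of the IFITM1 coding sequence aligned with base 64 of that of IFITM3, so that IFITM1 has no counterpart of the first 63 bases.

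Such similarity bears on how the counts can be read. Of all windows of 50 bases in the IFITM1 transcript, 12.2% occurred unchanged in the IFITM3 transcript and 6.20% in that of IFITM2. Of the IFITM3 windows, 12.9% occurred in IFITM1 and 6.72% in IFITM2, and of the IFITM2 windows 8.20% in IFITM1 and 8.36% in IFITM3. Transcripts of genes outside the trio held 1.24, 9.02 and 3.69% of the windows of IFITM1, IFITM2 and IFITM3. In this annotation another IFITM2 transcript runs into IFITM1 and holds 39% of the IFITM1 windows and 14.4% of the IFITM3 windows. The read length, the annotation of the counting and its treatment of reads with several matches are not given in the sources used here. The split of reads among the 3 rows is therefore uncertain, and sums over rows are given below beside the single genes.

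Promoter sequence was matched by symbol for 2 of the 3 members, IFITM1 and IFITM3, in RefSeq on GRCh38.p14. The windows ran from 250 bases before to 50 after the first transcribed base in RefSeq and were searched on both strands for GAAANNGAAA, the core of the element that interferon-activated factors bind. Each window held it at 2 places, all on the strand of the gene, starting, relative to the RefSeq start, at bases -40 and -6 in IFITM1 and at -52 and -35 in IFITM3. The sites are shown because they are the sequence that IFITM1 and IFITM3 share with other interferon-stimulated genes; capitals mark the fixed bases of the motif.
IFITM1 chr11:313990-314019 plus strand: caaacagcagGAAAtaGAAActtaagagaa
IFITM1 chr11:314024-314053 plus strand: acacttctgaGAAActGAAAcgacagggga
IFITM3 chr11:320885-320914 minus strand: agGAAAagGAAActgttgaGAAAccGAAAc
The motif occurred in 3.57% of all 35116 promoter windows in the table, and in 32 of 49 (65.3%) windows of the interferon-stimulated genes described below. The IFITM1 site that starts at base -6 runs across the RefSeq start, and the other sites precede the start of their gene in RefSeq. The RefSeq starts lie inside the GENCODE transcripts given above, and all these sites fall within the span of those transcripts in GENCODE. A match describes letters only and shows no binding.

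SETD7 was measured first, as the target of the hairpin. It had 27.8, 43.8 and 26.7 CPM in Set7KD libraries 1, 2 and 3, against 180, 178 and 176 CPM in NTC libraries 1, 2 and 3. CPM here are gene counts scaled to a common library size, with TMM factors that balance libraries on the bulk of their genes. SETD7 averaged 32.8 ± 9.59 CPM in Set7KD and 178 ± 2.18 CPM in NTC (SD, n = 3 each), log2 fold change -2.44 (SE, the standard error, 0.21; edgeR adjusted p = 0.000927). Gene counts per library ran from 16385878 to 16953331, so that 1 count was worth 0.0590 to 0.0610 CPM before scaling. Of 12 endothelial markers written, 10 were analysed. TIE1, FLT1, TEK and KDR, receptors of endothelial growth factors or their relatives, ENG, a TGF-beta co-receptor, and CDH5, the cadherin of endothelial junctions, passed edgeR at an adjusted p under 0.05 in unlike directions: log2 fold changes were -0.72 for TIE1 and -0.80 for CDH5, and 0.84 for FLT1, 0.68 for KDR, 0.38 for TEK and 0.30 for ENG. The list median was 0.26. CDH5 stood at 119 ± 11.4 CPM in Set7KD and 206 ± 32.1 CPM in NTC (SD, n = 3 each), and VWF, the von Willebrand factor, which was not called, at 10.1 ± 0.645 CPM in Set7KD and 9.70 ± 2.25 CPM in NTC. PECAM1 and CLDN5 had no row of counts under these symbols and were not analysed here.

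The IFITM genes were chosen by a measured value of these counts: IFITM1 had been among the genes with the lowest log2 fold changes of Set7KD over NTC. The levels below come from that same contrast, so they are given as a description with no test. All members were lower in Set7KD, IFITM1 by far the most and IFITM2 the least.

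IFITM1 had 25, 29 and 18 counts in Set7KD libraries 1, 2 and 3, against 241, 338 and 102 counts in NTC libraries 1, 2 and 3. Exact Poisson 95% intervals, which cover counting error only, were 16.2 to 36.9, 19.4 to 41.6 and 10.7 to 28.4 counts for the Set7KD libraries, and 212 to 273, 303 to 376 and 83.2 to 124 counts for the NTC libraries. In CPM these were 1.51, 1.79 and 1.10 in Set7KD, against 14.1, 20.4 and 5.97 in NTC. All Set7KD libraries lay below all NTC libraries, and NTC library 3 was well below the other NTC libraries. The means were 1.47 ± 0.347 CPM in Set7KD and 13.5 ± 7.21 CPM in NTC (SD, n = 3 each), with log2 fold change -3.19 (SE 0.66), or 9.12-fold lower. This was the third lowest fold change among the 18482 genes fitted.

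IFITM3, the member with the highest count, had 146, 149 and 130 CPM in Set7KD libraries 1, 2 and 3, against 245, 251 and 201 CPM in NTC libraries 1, 2 and 3. The groups did not overlap, and library 3 was the lowest of each group. The means were 142 ± 10.5 CPM in Set7KD and 232 ± 27.0 CPM in NTC (SD, n = 3 each), with log2 fold change -0.71 (SE 0.08), or 1.64-fold lower. IFITM2 had 81.0, 89.3 and 80.5 CPM in Set7KD libraries 1, 2 and 3, against 128, 131 and 101 CPM in NTC libraries 1, 2 and 3. Its groups did not overlap either, and NTC library 3 again stood nearest to Set7KD. The means were 83.6 ± 4.95 CPM in Set7KD and 120 ± 16.8 CPM in NTC (SD, n = 3 each), with log2 fold change -0.52 (SE 0.10), or 1.44-fold lower.

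**Figure D1:**
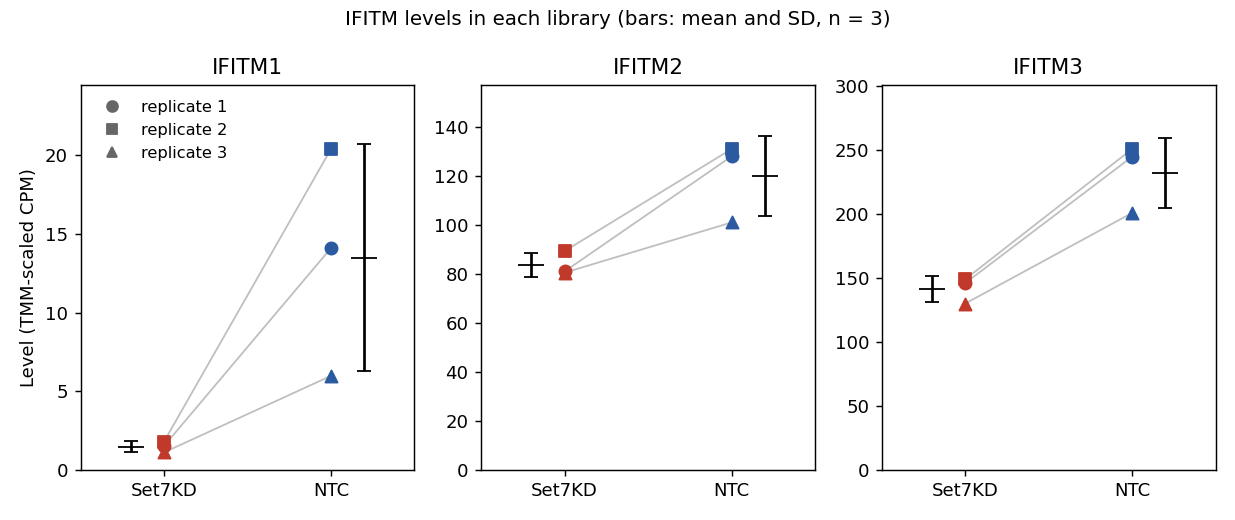
Level of IFITM1, IFITM2 and IFITM3 in TMM-scaled CPM (vertical axes from 0, a scale for each gene) in the 3 Set7KD and 3 NTC libraries; grey lines join libraries with the same replicate number, and bars give the mean and SD. Every Set7KD point lies below every NTC point, and in all panels NTC library 3 is the lowest NTC point, at 5.97 CPM for IFITM1.

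Adjusted p under 0.05 called 36.2% of the 18482 genes in either direction, 17.6% as higher and 18.6% as lower in Set7KD. Groups did not overlap, with Set7KD the lower, for 24.1% of them and for 3 of 3 IFITM genes. Since this contrast chose the family, nothing is read from that count. The log2 fold change of IFITM3 was undercut by 5.44% of all genes and that of IFITM2 by 10%.

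The replicate numbers pair the libraries by the check given under processing, and the comparison was repeated within each number. IFITM1 in Set7KD stood at 10.7, 8.81 and 18.5% of the NTC library with the same number, for numbers 1, 2 and 3. The mean log2 ratio over the pairs was -3.05 ± 0.55 (SD, n = 3 pairs). IFITM3 stood at 59.9, 59.5 and 64.5% and IFITM2 at 63.2, 68.1 and 79.9% of the NTC library of their number. Each of these shares was below that of its NTC library. Number 3, whose NTC library had the lowest IFITM levels, gave the smallest difference for each gene. When the replicate number entered as a block, IFITM1 had a log2 fold change of -3.17 (SE 0.17, in place of 0.66 without the block). IFITM3 then had -0.71 (SE 0.04) and IFITM2 -0.52 (SE 0.06).

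Spread within the NTC group was large for the family. The NTC values of IFITM1 are part of the contrast that chose the family, so this spread too is a description only. IFITM1 had a coefficient of variation of 53.5% over the NTC libraries, where 4535 other genes with a mean within a factor of 2 of its own had a median of 7.54% and 99.9% of them varied less. IFITM2 and IFITM3 varied by 14 and 11.6% in NTC, and 96.5 and 93.8% of the genes of like level varied less. In Set7KD the coefficients were 23.6, 5.92 and 7.37% for IFITM1, IFITM2 and IFITM3, above those of 66.5, 66.6 and 82.3% of genes of like level. The exact Poisson intervals of the 3 NTC libraries for IFITM1 did not meet.

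Levels were compared between the genes per kilobase of transcript. IFITM3 stood at 176 ± 12.9 CPM per kb in Set7KD and 288 ± 33.7 CPM per kb in NTC (SD, n = 3 each). IFITM2 stood at 127 ± 7.81 CPM per kb in Set7KD and 182 ± 25.5 CPM per kb in NTC. IFITM1 was far below both, at 1.72 ± 0.407 CPM per kb in Set7KD and 15.8 ± 8.43 CPM per kb in NTC. The order IFITM3, IFITM2, IFITM1 was the same in all 6 libraries, with no overlap between neighbours within a group.

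IFITM1 was thus a small part of the family's transcripts in both groups. It made up 0.661, 0.745 and 0.521% of the summed IFITM counts in Set7KD libraries 1, 2 and 3, against 3.64, 5.05 and 1.94% in NTC libraries 1, 2 and 3. The Wilson 95% interval of the highest Set7KD share was 0.519 to 1.07%, and that of the lowest NTC share 1.60 to 2.35%. These intervals cover counting error only. The group difference in the share follows from the choice of IFITM1 for its low fold change, so nothing is read from it. The sum of all 3 genes was 227 ± 14.6 CPM in Set7KD and 366 ± 50.9 CPM in NTC, which leaves 62.0% of the NTC level, almost all of it IFITM2 and IFITM3. A sum of IFITM2 and IFITM3, which does not depend on how reads were split between these 2 copies, gave 226 ± 14 CPM in Set7KD and 352 ± 43.8 CPM in NTC (SD, n = 3 each). Summed counts gave a log2 ratio of -0.64 (SE 0.09), between those of its parts.

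Ratios between the genes were taken within each library. The ratio of IFITM2 to IFITM3 was 0.553, 0.598 and 0.619 in Set7KD libraries 1, 2 and 3, against 0.524, 0.522 and 0.5 in NTC libraries 1, 2 and 3, so that the groups did not overlap. The ratio of IFITM1 to IFITM3 was 0.0103, 0.0120 and 0.00848 in Set7KD, against 0.0576, 0.0810 and 0.0296 in NTC. The difference in the second ratio follows from the choice of IFITM1 for its low fold change, so nothing is read from it. These ratios compare genes within a library and do not change with the scaling of libraries. Reads that were assigned to the wrong copy would alter them; their part was not tested.

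**Figure D2:**
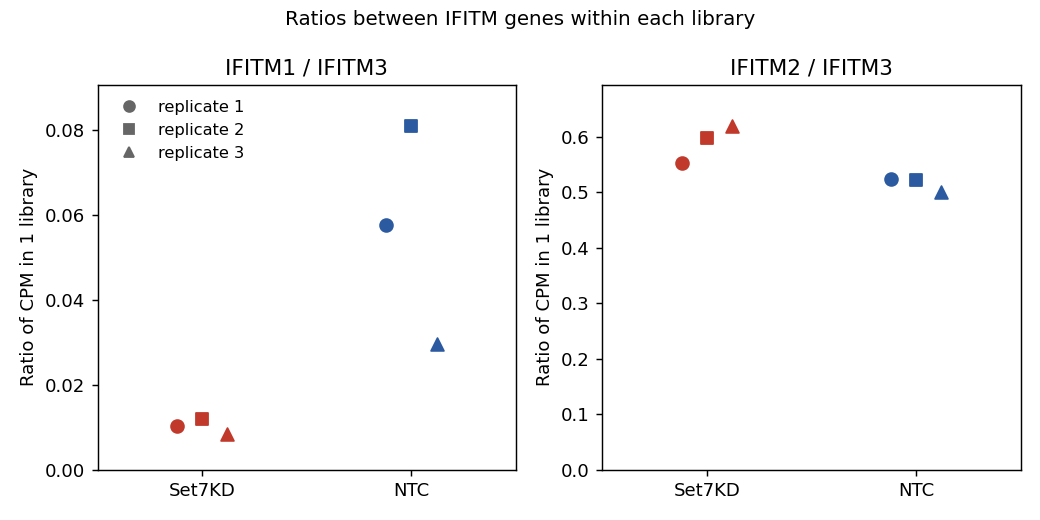
Ratio of CPM of IFITM1 to IFITM3 (left) and of IFITM2 to IFITM3 (right) within each of the 3 Set7KD and 3 NTC libraries (marker shape: replicate number). The ratio to IFITM3 is lower in Set7KD for IFITM1, at 0.00848 to 0.0120, and higher in Set7KD for IFITM2, at 0.553 to 0.619.

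The genes whose pattern over the 6 libraries was most like that of each member were found from log2(CPM + 1) centred on each gene's mean, by the root-mean-square difference over libraries, among 13090 other genes that averaged 5 CPM or more. For IFITM1 they were DUSP6, a phosphatase that switches off ERK, at 0.395 log2 units, IL1B, the cytokine interleukin 1 beta, at 0.402, GALNTL2 at 0.404, TMEM64 at 0.415 and the gene listed as CTC-250I14.6 at 0.423, where the median candidate was at 1.31. DUSP6 had 68.1, 95.4 and 44.2 CPM in Set7KD libraries 1, 2 and 3, against 265, 322 and 140 CPM in NTC libraries 1, 2 and 3. Like IFITM1 it was highest in number 2 and lowest in number 3 in both groups. For IFITM2 the nearest genes were DDB2, a damage recognition protein, at 0.0301, HOXA7 at 0.0303, CLEC2B at 0.0363, SMOC1 at 0.0367 and TNFRSF10B, a death receptor, at 0.0418, with a median candidate at 0.304. For IFITM3 they were PDGFA, a growth factor chain, at 0.0420, CHMP1B at 0.0456, OAF at 0.0457, RASIP1 at 0.0468 and TSTA3 at 0.05, with a median candidate at 0.385. Among 13092 genes, IFITM3 ranked 269 and IFITM2 ranked 554 by likeness to IFITM1. Seen from the others, IFITM1 ranked 13041 by likeness to IFITM3 and 13068 by likeness to IFITM2, among the least alike. This distance grows with the size of the group difference, for which IFITM1 was chosen. Nothing is therefore read from the ranks of IFITM1 or from which genes lay nearest to it. IFITM2 ranked 149 by likeness to IFITM3, and IFITM3 ranked 232 by likeness to IFITM2.

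Other interferon-stimulated genes were lower in Set7KD more often than higher. In the fit with group as the single factor most did not pass, while with the replicate block 25 of 50 were called lower and 3 higher. Of 50 tested genes outside the family, 17 fell and 3 rose by edgeR, and 30 were not called. This is 34.0% lower, against 18.6% of all genes tested, and 40.0% called in either direction, against 36.2%. The median log2 fold change was -0.29, against -0.01 over all genes. The list was written with earlier results of these data known, so that its direction is no independent evidence.

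Those with the smallest p included HLA-E, a ligand of natural killer receptors, which had 108, 119 and 102 CPM in Set7KD libraries 1, 2 and 3, against 203, 224 and 190 CPM in NTC libraries 1, 2 and 3. Its log2 fold change was -0.91 (SE 0.07, edgeR adjusted p = 4.11e-07), but HLA genes are close copies whose reads can be split. LGALS3BP, a secreted glycoprotein, averaged 93.2 ± 2.70 CPM in Set7KD and 163 ± 13.6 CPM in NTC (SD, n = 3 each; log2 fold change -0.81, edgeR adjusted p = 2.75e-07). ISG20, an exonuclease, fell to 5.34 ± 0.338 CPM in Set7KD, against 12.7 ± 1.26 CPM in NTC (edgeR adjusted p = 2.14e-06). UBE2L6, the enzyme that conjugates ISG15, had a log2 fold change of -0.55 and PML, the scaffold of nuclear bodies, of -0.37, with edgeR adjusted p of 0.000123 and 0.000132. The groups did not overlap for any of these 5 genes.

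ISG15 and MX1, both classical interferon-stimulated genes, were not called in the fit without the replicate block. Their log2 fold changes of -0.54 and -1.15 were no smaller in size than the -0.52 of IFITM2. In all, 43 of the 50 genes had a log2 fold change below 0. ISG15 had 21.5, 19.3 and 25.5 CPM in Set7KD libraries 1, 2 and 3, against 33.6, 38.2 and 24.3 CPM in NTC libraries 1, 2 and 3, and its groups overlapped (edgeR adjusted p = 0.0580). MX1, a GTPase against viruses, had 11.6, 14.8 and 14.4 CPM in Set7KD, against 32.2, 41.5 and 16.7 CPM in NTC, without overlap but with an edgeR adjusted p of 0.0937. In both genes NTC library 3 stood apart from NTC libraries 1 and 2, as it did for IFITM1. GBP1, a guanylate-binding protein, rose to 85.8 ± 5.15 CPM in Set7KD, against 55.0 ± 7.78 CPM in NTC (SD, n = 3 each; edgeR adjusted p = 0.000268).

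NTC library 3 had the lowest of the 3 NTC values for 46 of the 50 interferon-stimulated genes (92.0%), against 37.4% of all genes tested. This was not limited to them: it held for 9 of 10 endothelial markers. Of lists given below, it held for 14 of 21 receptor and JAK-STAT genes and 9 of 12 sensors. It also held for 12 of 17 restriction factors and 9 of 13 IFITM partners. It held for 9 of 20 chromosome 11 neighbours, 2 of 10 smooth muscle and pericyte markers and 0 of 7 fibroblast markers. Without NTC library 3, 32 of 51 tested interferon-stimulated genes were called lower (62.7%, against 17.8% of all genes). Without both libraries numbered 3, an alternative chosen after the data were seen, it was 31 of 51 (60.8%, against 15.1%). Without Set7KD library 1 the count was 12 of 51 (23.5%, against 13.7% of all genes). With the replicate block it was 25 of 50 (against 22.1% of all genes). The count of higher members was 3 in all these fits. What sets NTC library 3 apart was not tested. The GAAANNGAAA motif was present in the promoter windows of 10 of 15 members called lower, 2 of 3 called higher and 20 of 31 not called; these shares were not compared by a test.

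**Figure D3:**
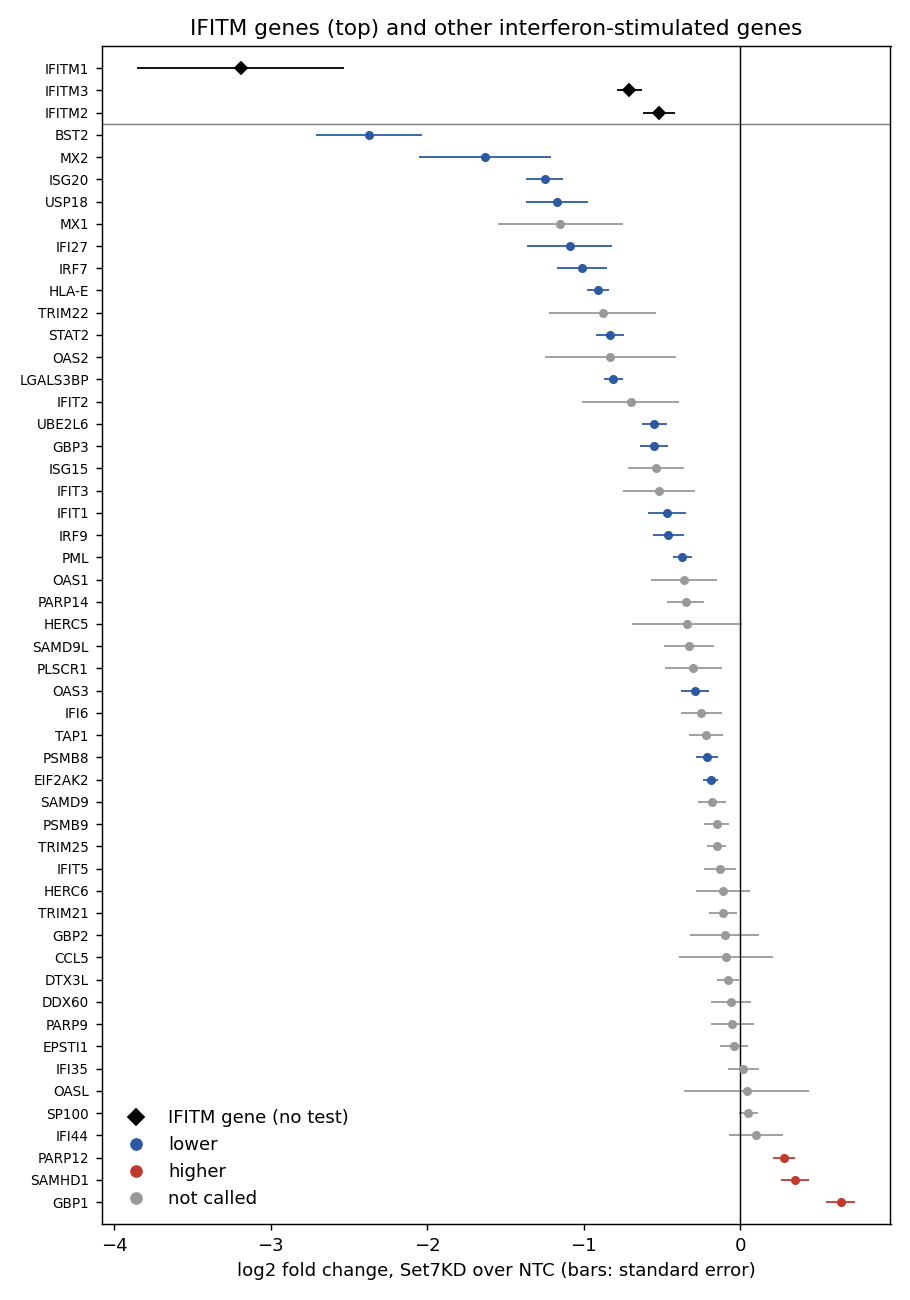
Log2 fold change, Set7KD over NTC, of IFITM1, IFITM3 and IFITM2 (black diamonds, no test) above 49 of the 50 other tested interferon-stimulated genes (circles; blue, lower; red, higher; grey, not called by edgeR at an adjusted p under 0.05), with standard errors. IFITM1 at -3.19 lies left of all other genes drawn, BST2 at -2.37 comes nearest, and 17 genes are blue and 3 red.

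Genes that carry the interferon signal moved in both directions. Of 21 tested receptor and JAK-STAT genes, 9 fell (42.9%, against 18.6% of all genes), 3 rose (against 17.6% of all genes rising) and 9 were not called by edgeR, with a median log2 fold change of -0.18. The lists overlap: STAT2, IRF7, USP18 and IRF9 (log2 fold change -0.46), all lower, are also counted among the interferon-stimulated genes above. STAT2, a subunit of the factor that binds the interferon element, had 57.1, 63.7 and 56.2 CPM in Set7KD libraries 1, 2 and 3, against 108, 117 and 89.8 CPM in NTC libraries 1, 2 and 3, with no overlap (log2 fold change -0.83, edgeR adjusted p = 4.9e-05). IRF7, a transcription factor that induces interferon genes, fell to 4.92 ± 1.26 CPM in Set7KD, against 9.91 ± 1.03 CPM in NTC (edgeR adjusted p = 0.000182), and USP18, an inhibitor of receptor signalling that is itself induced by interferon, to 1.98 ± 0.0792 CPM, against 4.46 ± 1.04 CPM (edgeR adjusted p = 0.000383). IRF3 and IRF1, factors of the same family, had log2 fold changes of -0.48 and -0.78, with edgeR adjusted p of 2.48e-05 and 0.000630. The kinase gene JAK1 rose to 364 ± 1.26 CPM in Set7KD, against 300.0 ± 4.96 CPM in NTC (edgeR adjusted p = 0.000361). IFNAR1, a chain of the type I receptor, had 107 ± 6.86 and 111 ± 4.95 CPM in Set7KD and NTC and did not pass, at an edgeR adjusted p of 0.460. The 9 interferon ligand genes written had no row of counts under the symbols used and were not analysed here.

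Sensors of viral nucleic acid, which act ahead of interferon, gave 4 lower and 1 higher among 12 tested, or 41.7% called, close to the 36.2% of all genes, with a median log2 fold change of -0.16. TMEM173, also called STING, fell to 44.0 ± 4.60 CPM in Set7KD, against 70.0 ± 7.95 CPM in NTC (edgeR adjusted p = 0.000135). MB21D1, also called cGAS, the enzyme that makes the STING ligand, rose to 10 ± 1.16 CPM in Set7KD, against 6.23 ± 0.776 CPM in NTC (edgeR adjusted p = 0.000903). DDX58, the RNA sensor RIG-I, fell to 19.7 ± 3.36 CPM, against 27.3 ± 2.94 CPM (edgeR adjusted p = 0.00671). The count of lower sensors was 2 without Set7KD library 3, NTC library 1 or NTC library 2. The calls of IFIH1 and TICAM1 were then lost, and 15.0, 13.8 and 16.4% of all genes were lower in these fits. With the replicate block 2 sensors were higher, where 3826 of all 18482 genes were higher.

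Other host factors that restrict viruses included the gene closest to IFITM1 in size of change among the interferon-stimulated genes. BST2, also called tetherin, which holds budding virus at the cell surface, had 1.15, 1.61 and 1.10 CPM in Set7KD libraries 1, 2 and 3, against 6.84, 9.21 and 4.04 CPM in NTC libraries 1, 2 and 3. The groups did not overlap and number 2 was again the highest in both, with a log2 fold change of -2.37 (SE 0.34, edgeR adjusted p = 0.000770). By edgeR, 8 of 17 tested restriction factors fell (47.1%) and 3 rose, where 18.6% of all genes fell and 17.6% rose. BST2 and MX2 (log2 fold change -1.63), which fell, and SAMHD1 (0.35), which rose, are also counted among the interferon-stimulated genes. LY6E, a lipid-anchored surface protein, fell to 53.5 ± 2 CPM in Set7KD, against 77.6 ± 8.77 CPM in NTC (edgeR adjusted p = 7.61e-05), SERINC3, a membrane protein taken up into virions, to 174 ± 6.40 CPM, against 233 ± 5.97 CPM (edgeR adjusted p = 1.92e-05), and SLFN5 to 43.2 ± 6.33 CPM, against 67.7 ± 3.14 CPM (edgeR adjusted p = 8.81e-05). ZNFX1 rose to 163 ± 10.1 CPM in Set7KD, against 136 ± 3.02 CPM in NTC (edgeR adjusted p = 0.00230). Leaving out Set7KD library 1 brought the count of lower factors to 5, where 13.7% of all genes were lower. Leaving out Set7KD library 2 brought the count of higher ones to 1, where 3214 of all genes rose, against 3250 with all libraries.

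Genes reported to bind or modify IFITM proteins were called in both directions. Of 13 tested, 5 rose and 2 fell (15.4%) by edgeR, where 17.6% of all genes rose and 18.6% fell, and SETD7 itself was 1 of these 2. The other was NEDD4, a ubiquitin ligase of IFITM3, at 75.3 ± 4.51 CPM in Set7KD and 94.2 ± 4.81 CPM in NTC (SD, n = 3 each; edgeR adjusted p = 0.000797). CAV1, the caveolae protein caveolin 1, rose to 703 ± 26.6 CPM in Set7KD, against 407 ± 25.1 CPM in NTC (edgeR adjusted p = 1.61e-07), and VAPA, a membrane contact protein that binds IFITM3, to 195 ± 7.78 CPM, against 162 ± 7.63 CPM (edgeR adjusted p = 0.00157). CD81, a tetraspanin that associates with IFITM1, had 159 ± 16.6 CPM in Set7KD and 170 ± 6.98 CPM in NTC and did not pass (edgeR adjusted p = 0.300). With any single library left out other than Set7KD library 2, the count of these genes that rose was 2 or 3. In those fits 2423 to 2992 of all genes rose, against 3250 with all libraries. With the replicate block 4 of the listed genes fell, where 22.1% of all genes fell.

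The genes listed as neighbours of the cluster on chromosome 11 were also lower more often than higher. Of 20 tested, 10 fell and 3 rose by edgeR, where 18.6% of all genes fell and 17.6% rose, with a median log2 fold change of -0.24. Among those that fell, IRF7 and IFITM10 are also counted in other lists given here. IFITM10 is the last of the listed genes in order along the chromosome. The list was written beforehand and need not hold every gene of the region. ATHL1, the nearest analysed neighbour on the IFITM2 side, had 18.6, 18.4 and 18.1 CPM in Set7KD libraries 1, 2 and 3, against 31.9, 29.1 and 29.5 CPM in NTC libraries 1, 2 and 3 (log2 fold change -0.72, edgeR adjusted p = 6.53e-06). It differs from the IFITM genes in that NTC library 3 did not stand apart. B4GALNT4, the nearest on the IFITM3 side, overlapped between groups, at 3.48 ± 0.582 CPM in Set7KD and 3.81 ± 0.954 CPM in NTC (edgeR adjusted p = 0.642), as did PKP3 beyond it. ANO9, farther along, was at 0.347 ± 0.0711 CPM in Set7KD and 1.46 ± 0.148 CPM in NTC, only a few reads in Set7KD (edgeR adjusted p = 0.000129). SIRT3, a mitochondrial deacetylase, had a log2 fold change of -0.40 and C11orf35 of -1.36, with edgeR adjusted p of 0.00175 and 0.00137. C11orf35 also had only a few reads in Set7KD, at 0.753 ± 0.206 CPM, against 1.95 ± 0.403 CPM in NTC. IFITM5, which lies between ATHL1 and IFITM2, had no row of counts under this symbol and was not analysed here. Without both libraries numbered 3 the count of neighbours that rose was 1, where 2827 of all genes rose. When at least 50 counts were required in every library of a group, 6 neighbours fell, where 21.2% of all genes fell.

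**Figure D4:**
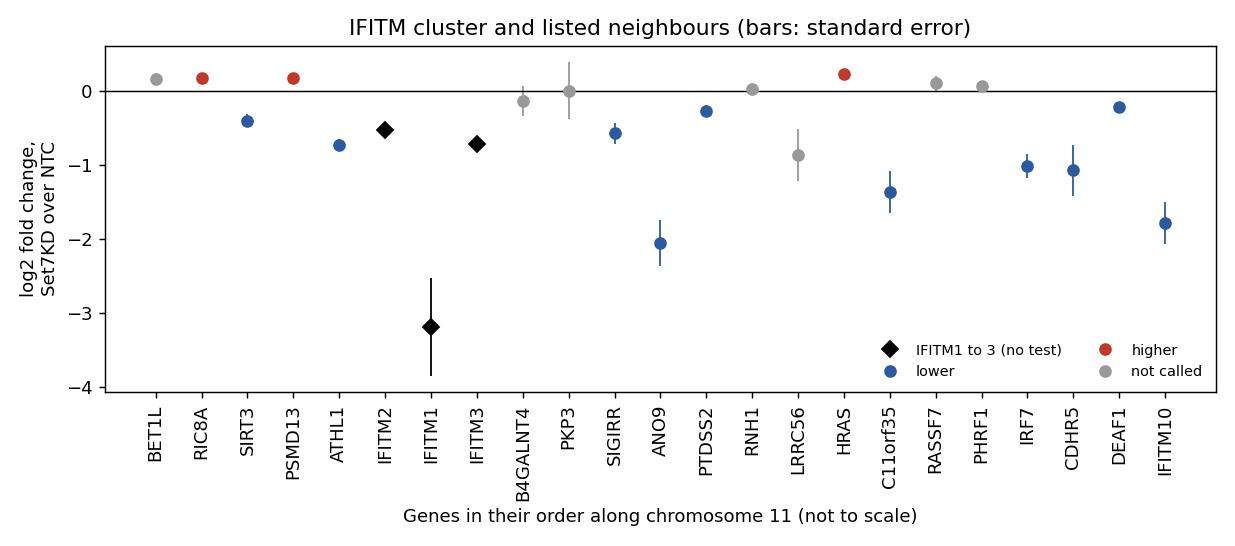
Log2 fold change, Set7KD over NTC, with standard error, of the IFITM genes (black diamonds, no test) and 20 listed genes around them, in their order along chromosome 11 and not to scale. Lower genes (blue) are interspersed with genes that rose (red) or were not called (grey), and IFITM1 at -3.19 lies below both of its IFITM neighbours.

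IFITM10 is a more distant relative on the same chromosome whose function is little known. It had 0.605, 0.804 and 0.551 CPM in Set7KD libraries 1, 2 and 3, against 2.16, 1.75 and 2.87 CPM in NTC libraries 1, 2 and 3. The groups did not overlap, and in contrast to IFITM1 the NTC library 3 was the highest of its group. Its log2 fold change was -1.78 (SE 0.28, edgeR adjusted p = 0.000176). The Set7KD levels stand for only a few reads, and IFITM10 was not fitted when at least 50 counts were required in every library of a group. Of the 4 tested genes of the wider protein family outside the cluster, 2 fell and none rose by edgeR, where 18.6% of all genes fell. These were IFITM10 and TMEM91, the second at 4.87 ± 1.08 CPM in Set7KD and 7.17 ± 0.773 CPM in NTC (edgeR adjusted p = 0.0126). TMEM91 lost its call in 1 alternative, with an adjusted p of 0.0575. PRRT1 and PRRT2 had log2 fold changes of -0.33 and -0.26 and did not pass (edgeR adjusted p = 0.105 and 0.258).

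Markers of other cell types were looked at beside these results, with 17.6% of all genes higher and 18.6% lower as the background of each count. Of 10 leukocyte markers only CD14 had a row of counts under the symbol used, at 3.87 ± 0.469 CPM in Set7KD and 5.51 ± 0.401 CPM in NTC. Of 7 tested fibroblast markers 5 rose and none fell by edgeR, and their summed level was 3220 to 4180 CPM in Set7KD and 1510 to 2070 CPM in NTC. Most of that sum was COL1A1, at 2410 to 3150 CPM in Set7KD and 1280 to 1820 CPM in NTC. Of 10 smooth muscle and pericyte markers 5 rose and none fell, with sums of 771 to 1060 CPM in Set7KD and 395 to 438 CPM in NTC. The 10 endothelial markers summed to 554 to 585 CPM in Set7KD and 587 to 729 CPM in NTC, with 4 higher and 2 lower. No marker analysed was at 0 in all libraries of a group. Fewer cells that express a gene and less transcript per cell cannot be told apart in bulk RNA, and the part of these markers in the IFITM levels was not tested.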

How the data were processed

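Poly-A RNA libraries of HMEC-1 cells (6 in all) were compared, with group and replicate number taken from the sample titles. The authors deposited 1 table of whole-number read counts per gene; BWA, bedtools and the build hg19, without versions, stand in the submitters' processing notes. The row for reads outside listed genes (55.6 to 56.1% of counts) entered neither library sizes nor tests. Every listed gene had at least 60 counts in sum. No source used here says whether counting used strand.

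The model was edgeR 4.0.16 under R 4.3.3, with group as the single factor, TMM scaling, the filterByExpr filter, robust glmQLFit and glmQLFTest, with Benjamini-Hochberg adjustment over 18482 genes. Standard errors are the size of the log2 fold change divided by the square root of F. Alternatives included DESeq2 1.42.0 and each library left out. The members and gene lists were chosen with earlier results of these data known. Named genes are the members, SETD7, up to 6 genes of smallest p per list, other list genes given with their values, and the 5 genes nearest in pattern to each member.

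The pairing was checked on 11151 genes that averaged 10 CPM or more. Same-numbered libraries deviated together from their group means (r = 0.30, 0.42 and 0.34), and other pairs across groups did not (r from -0.36 to -0.04). Deviations from a group mean cancel out within each gene, so the second values follow in part from the first. The within-number ratios and the replicate block treat the libraries as paired by number. Calls and adjusted p of named genes come from the fit without the block, unless another fit is named. The pairing rests on the data, since the labels do not explain the numbers. Replicates were not repeats of 1 library: chi-square per degree of freedom was 2.98 to 9.85. Coding sequences were taken from GENCODE 29 and aligned with Biopython 1.88. A gene of the lists is counted in them but not reported here by itself.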

Additional observations from a re-analysis of the deposited data

How the results depend on the processing

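The log2 fold changes of IFITM1, IFITM2 and IFITM3 kept their sign in every alternative. With single libraries left out they ran from -3.54 to -2.77 for IFITM1, from -0.63 to -0.45 for IFITM2 and from -0.80 to -0.64 for IFITM3, whose value of -0.80 came without NTC replicate 3. With both libraries numbered 3 left out, chosen after the data were seen, they were -3.36, -0.59 and -0.73. With the replicate block they were -3.17, -0.52 and -0.71, the standard error of IFITM1 was 0.17, and 4090 genes were lower and 3826 higher. Over all alternatives but the block the lower genes numbered 2545 to 3445 and the higher ones 2423 to 3352. Lower interferon-stimulated genes numbered 12 to 32 with single libraries left out (32 without NTC replicate 3) and 31 without both libraries numbered 3. Lower sensors numbered 2 to 5 with single libraries left out, and 2 sensors were higher with the replicate block. Division by transcript length moved the mean share of IFITM2 to 41.7% in Set7KD and 37.5% in NTC, and that of IFITM3 to 57.7 and 59.3%. At 18 to 29 counts per Set7KD library, depth limits the precision of IFITM1 there.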
